A study of Homo sapiens with 3 samples.

Results

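Chromosome 19 carries the densest collection of zinc finger genes in the human genome, and the data described here are the RNA-seq counts of those genes in DU145 cells. The members were taken by a rule that used no measured value: protein-coding genes on chromosome 19 whose symbol is ZNF followed by a number and at most 1 letter. The rule found 246 of the 58735 genes listed in each count file, and 238 of the 246 carry the zf-C2H2 family name in the files' own transcription factor column. All 246 have the same position in GENCODE 29, the annotation of the genome build GRCh38 to which every coordinate below refers.

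DU145 is an established, androgen-independent line of human prostate cancer, and the study asked which genes change when PD-L1, an immune checkpoint ligand encoded by CD274, is depleted in it. There are 3 libraries, namely 1 control and 2 labelled PD-L1 knockdown, with no further agent named in the labels. According to the study's methods, stable knockdown lines were made with a pLKO.1 lentiviral vector carrying a short hairpin RNA (shRNA) against PD-L1, with the empty vector as control, and selected with puromycin. The RNA-seq text calls the control cells only DU145, so whether the sequenced control carried the empty vector is not stated. It names the depleted cells by sh1 and sh2, while the methods print 1 hairpin sequence. The sample titles read Knockdown1 and Knockdown2, and by that numbering the libraries are called here the libraries labelled sh1 and sh2. They are set together against 1 control, which has no replicate.

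The proteins of this family read DNA with tandem C2H2 zinc fingers, small folds in which a pair of cysteines and a pair of histidines hold a zinc ion. Many of them also carry a KRAB box near the start of the protein. The KRAB box binds TRIM28 (KAP1), which brings the histone methyltransferase SETDB1, HP1 proteins and histone deacetylases to the bound site. KRAB zinc finger proteins are known for silencing transposable elements, and the chromosome 19 clusters arose by repeated local duplication of such genes. Neighbours in a cluster therefore often resemble each other in sequence, which bears on how reads can be assigned to them.

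The parts of the genes that define the family are shown for ZNF91, a member known for repressing SVA elements, and for ZNF146, the member with the highest level in these cells. The sequences are those of GENCODE 29 transcripts on GRCh38, given 5′ to 3′ on the coding strand. The KRAB stretch of ZNF91 lies on the minus strand at chr19:23374651-23374716, in exon 2 of 4 of the transcript ZNF91-201. Its capitals mark the codons of a Leu-Tyr pair and of a Val-Met pair that belong to the KRAB A box.
ZNF91 KRAB stretch: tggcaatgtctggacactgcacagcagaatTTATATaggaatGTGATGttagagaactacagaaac

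Consecutive fingers of ZNF91, each from the first cysteine codon to the base before the next finger, lie in exon 4 of 4 of the same transcript at chr19:23362094-23362177, chr19:23362010-23362093 and chr19:23361926-23362009. The capitals mark the cysteine and histidine codons.
ZNF91 finger A: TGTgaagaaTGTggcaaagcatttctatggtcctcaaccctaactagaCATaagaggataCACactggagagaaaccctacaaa
ZNF91 finger B: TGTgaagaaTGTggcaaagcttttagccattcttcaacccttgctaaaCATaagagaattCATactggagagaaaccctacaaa
ZNF91 finger C: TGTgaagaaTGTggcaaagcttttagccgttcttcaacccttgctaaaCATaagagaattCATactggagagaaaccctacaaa

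Fingers of ZNF146, marked in the same way, lie on the plus strand in exon 3 of 3 of the transcript ZNF146-202 at chr19:36236492-36236575, chr19:36236576-36236659 and chr19:36236660-36236743.
ZNF146 finger A: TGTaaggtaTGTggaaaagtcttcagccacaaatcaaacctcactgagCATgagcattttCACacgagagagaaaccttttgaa
ZNF146 finger B: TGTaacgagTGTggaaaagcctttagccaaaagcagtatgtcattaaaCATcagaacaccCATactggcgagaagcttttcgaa
ZNF146 finger C: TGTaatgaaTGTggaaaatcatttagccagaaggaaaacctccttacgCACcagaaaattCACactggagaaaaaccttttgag

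Each finger spans 84 bases here. Fingers B and C of ZNF91 were identical at 83 of the 84 bases, and finger A matched them at 70 and 71. The fingers of ZNF146 were less alike, at 55, 61 and 60 identical bases for A against B, A against C and B against C.

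These letters were then looked for in the longest coding transcript of every member, in frame and on the coding strand. The finger pattern was TGT or TGC, 2 to 4 codons, TGT or TGC, 12 codons, CAT or CAC, 3 to 5 codons, and CAT or CAC. It was found in 99.6% of the members against 3.51% of 1168 other protein-coding genes of chromosome 19, and the members held between 0 and 36 such fingers with a median of 12. The KRAB pattern was CTN, TTA or TTG, then TAT or TAC, any 2 codons, GTN and ATG. It was found in 195 of the 246 members (79.3%) and in 1.54% of the other genes. A missing match says only that these letters are absent from the transcript searched.

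The members also share features that bear on counting. Their listed lengths ran from 1360 to 14132 bases (median 5012) and their GC content from 34.3% to 71.0% (median 44.1%). They overlap another listed gene in 179 cases, and a gene on the opposite strand in 131. The share of a member's 31-base words that transcripts of other genes also hold had a median of 11.9% and passed 20% in 66 members and 50% in 13. Neither the use of strand nor the treatment of reads that match several genes is stated in the sources used here, so the split of reads between overlapping or similar genes is uncertain.

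The libraries held between 14733088 and 15786457 counts, and between 24735 and 25617 genes were detected. CD274 had 204 counts in the control, 213 under sh1 and 224 under sh2. RNA of the targeted gene was thus not lower where a knockdown is labelled (log2 fold change 0.05, SE 0.20, adjusted p = 0.947, edgeR quasi-likelihood). The study reports checking its knockdown lines, DU145 among them, by Western blot of the protein, which RNA counts do not measure. The labels and the study's methods also differ in the culture medium, the series text names BCPAP cells, and RBM45 stands in the header of the counts deposited for the control. Epithelial markers were high in all 3 libraries, with KRT8 at 157 to 176 FPKM (fragments per kilobase of gene, scaled to library size) and EPCAM at 20.3 to 22.8. The prostate genes KLK3, KLK2, TMPRSS2 and FOLH1 were listed at 0 counts, the thyroid gene TG had 3 to 15 counts, and the white blood cell gene PTPRC had 0 to 3. NKX2-1, a factor of lung and thyroid, had 1833, 2118 and 2590 counts.

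Most of these zinc finger genes were transcribed at low levels. Of the 246, 226 had at least 10 counts summed over the libraries and were tested, 6 had 1 to 9, and 14 had none in any library. On the FPKM scale, which is per length, 155 members had a mean level of at least 1, 21 of at least 5, and 21 of under 0.1. The tested members had a median mean level of 1.37 FPKM and a median mean count of 119. Together the 246 genes took a share of all counts that was 0.287% for the control, 0.270% for the library labelled sh1 and 0.252% for the library labelled sh2. These shares are 0.942 and 0.879 times that of the control. In bulk RNA, a smaller share of cells transcribing a gene and less RNA of it per cell cannot be told apart.

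**Figure D1:**
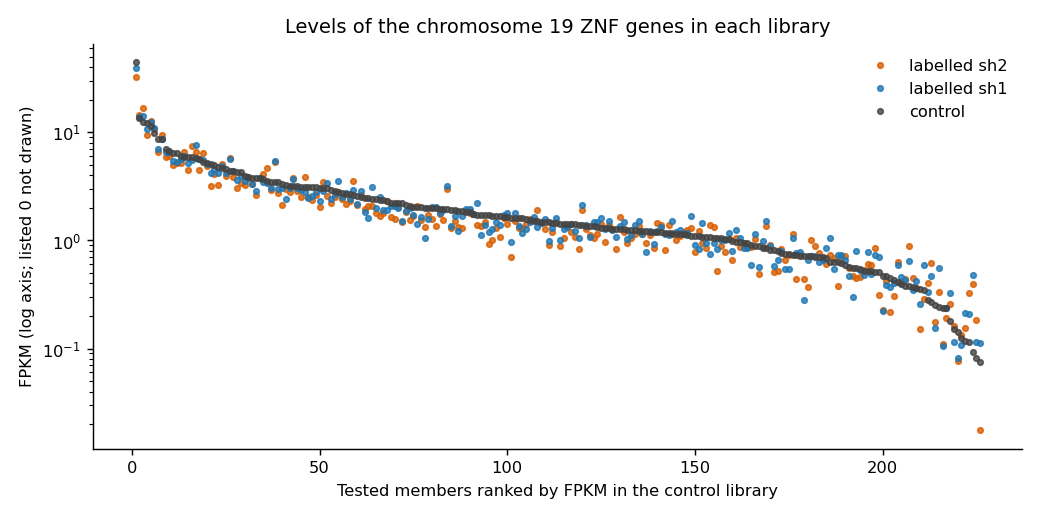
Level of each tested zinc finger gene of chromosome 19 in FPKM (log axis), ranked by its level in the control, with 1 point per library. The 3 libraries trace the same steep curve, with ZNF146 alone above 30 FPKM and a median of 1.44 FPKM in the control, 1.39 in the library labelled sh1 and 1.32 in the library labelled sh2.

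ZNF146 (ENSG00000167635, chr19:36214602-36238774, plus strand), which codes for a protein made almost entirely of zinc fingers, stood at 44.5, 39.3 and 32.5 FPKM in the control and the libraries labelled sh1 and sh2. The next levels were those of ZNF317 at 13.5, 13.9 and 14.6 FPKM and ZNF787 at 12.4, 14.1 and 16.8. ZNF121 had 12.3, 10.7 and 9.51 FPKM, ZNF358 had 11.5, 12.6 and 12.7, and ZNF574 had 9.77, 10.9 and 10.7. These 6 members, named for their mean level, were spread over both directions, since ZNF146 and ZNF121 were lowest in the library labelled sh2 and ZNF787 was highest there. Of the 6, only ZNF317 holds the KRAB pattern. The tested members with the pattern had a median level of 1.30 FPKM (179 genes), and those without it 3.15 FPKM (47 genes).

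The 14 members without any count were not scattered evenly. An unbroken row of 9 of them, ZNF208, ZNF257, ZNF676, ZNF729, ZNF98, ZNF492, ZNF99, ZNF723 and ZNF728, fills chr19:21932958-23003176, a stretch of 1070 kb. Of the 48 other genes listed in that stretch, 1 had any count, the pseudogene PCGF7P with 2 counts over all libraries. The members on either side were read in every library, ZNF43 with 93, 85 and 51 counts and ZNF730 with 28, 23 and 29. ZNF626, at chr19:20620061-20661596 in the same cluster, also had 0 counts. The other members at 0 were ZNF536, a repressor known from neurons, ZNF541, and the neighbours ZNF534 and ZNF578. A count of 0 allows a level of up to 0.204, 0.204 and 0.190 CPM (counts scaled to a library of 1000000) in the 3 libraries, by a limit of 3 counts that covers counting error only.

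No member passed a Benjamini-Hochberg adjusted p of 0.05 in edgeR's quasi-likelihood test of the libraries labelled sh1 and sh2 against the control. The smallest adjusted p among the members was 0.130, and over all 19849 tested genes 70 passed (0.353%). DESeq2 also called 0 members and limma-trend 0. Before adjustment, edgeR gave 20 members a p under 0.05 in the lower direction (8.85% of 226, against 4.92% of all tested genes) and 6 in the higher direction (2.65%, against 6.82%). The members were thus more often lower and less often higher than the background, a difference that was not tested. Zinc finger genes of other chromosomes, given below, leaned the same way, so this is not particular to chromosome 19. DESeq2 gave 1 member higher and 0 lower at that threshold, against 1.72% and 0.569% of all tested genes. With the trends of fold change with gene length and GC content removed, edgeR gave 3 higher (1.33%, against 3.75% of all tested genes) and 8 lower (3.54%, against 3.03%), so the share of lower members was then close to the background.

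As a set, the members leaned low in both libraries. The median log2 fold change over the 226 tested members was -0.13, with quartiles of -0.30 and 0.10, against 0.0015 over all tested genes, and 63.7% of the members were below 0 against 49.8% of all genes. Set against the control 1 library at a time, the median was -0.08 in the library labelled sh1 and -0.19 in the library labelled sh2. In the former 135 members lay below the control (59.7%, against 48.7% of all tested genes) and in the latter 148 (65.5%, against 50.1%). In both, which share that control, 114 lay below it (50.4%, against 36.7%). The exact 95% counting interval of the ratio to the control lay wholly below 1 for 33 members under sh1 (14.6%, against 13.6% of all tested genes) and 68 under sh2 (30.1%, against 18.7%). It lay wholly above 1 for 13 (5.75%, against 15.4%) and 12 (5.31%, against 19.5%). Under sh1 the share below 1 was thus close to the background.

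Zinc finger genes elsewhere in the genome, chosen by the same symbol rule, gave a median log2 fold change of -0.07 (235 tested of 263). Before adjustment 23 of them were lower (9.79%) and 5 higher (2.13%), shares near those of the members. The other protein-coding genes of chromosome 19 lay on the opposite side, with a median of 0.21 (827 tested of 1226). Of these, 181 were higher (21.9%) and 2 lower (0.242%). The median GC content was 44.1% in the members, 45.7% in zinc finger genes elsewhere and 60.8% in the other genes of chromosome 19. With the trends with length and GC content removed, the medians of these groups were -0.06, -0.02 and 0.04, beside 0.0050 over all genes. The distance between the members and the other protein-coding genes of chromosome 19, wherever these lie on it, was then smaller but kept its direction.

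**Figure D2:**
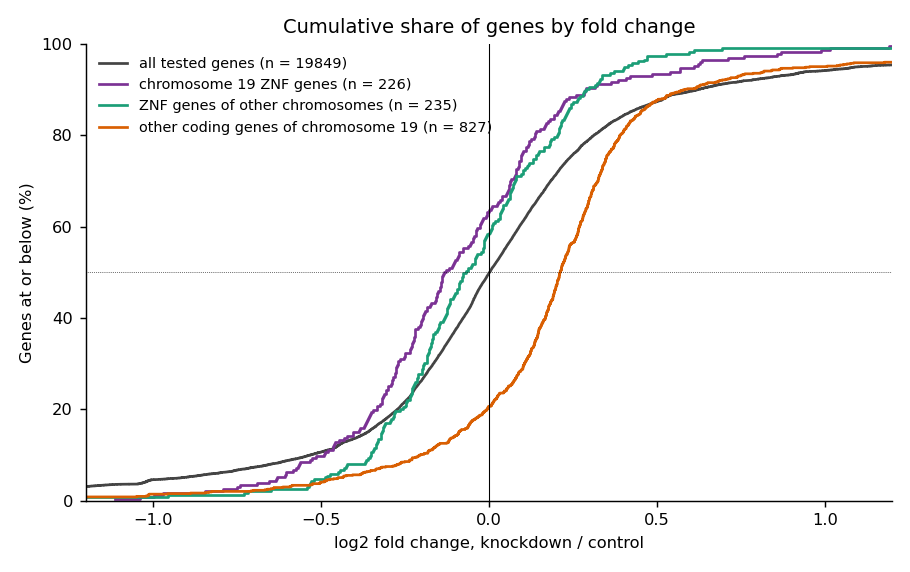
Cumulative share of genes (percent) by log2 fold change of the libraries labelled sh1 and sh2 against the control, for the zinc finger genes of chromosome 19, zinc finger genes of other chromosomes, other protein-coding genes of chromosome 19 and all tested genes. The curve of the members crosses 50% at -0.13, to the left of all genes, whereas the other coding genes of chromosome 19 cross it at 0.21.

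GC content moved with the fold change inside the family as well as outside it. Across the 122 members averaging 100 counts or more, the correlation of log2 fold change with GC content was r = 0.57 (Spearman's rho 0.54), and across 10219 other protein-coding genes of that depth it was r = 0.66 (rho 0.69). These correlations are across genes, which share the same libraries and are not independent replicates. Members with 30% to 40% GC had a median log2 fold change of -0.31 (25 tested), with 5 lower and 0 higher before adjustment. Members with 60% to 75% GC had a median of 0.19 (21 tested), with 3 higher and 0 lower. At that threshold 4.92% of all tested genes were lower and 6.82% higher. Other protein-coding genes of those GC ranges had medians of -0.20 and 0.23. Between 40% and 45% GC, the range with the most members, 109 tested genes had a median of -0.13 and the other coding genes -0.12. Within that range and at 60% to 75% GC the members thus lay close to genes of like GC content. Between 45% and 50% GC, 61 members had a median of -0.15 against -0.03 in other coding genes. With length and GC trends removed, the medians of the lowest and highest GC ranges were -0.11 and -0.05. The part of GC content in the result was not tested beyond these values.

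**Figure D3:**
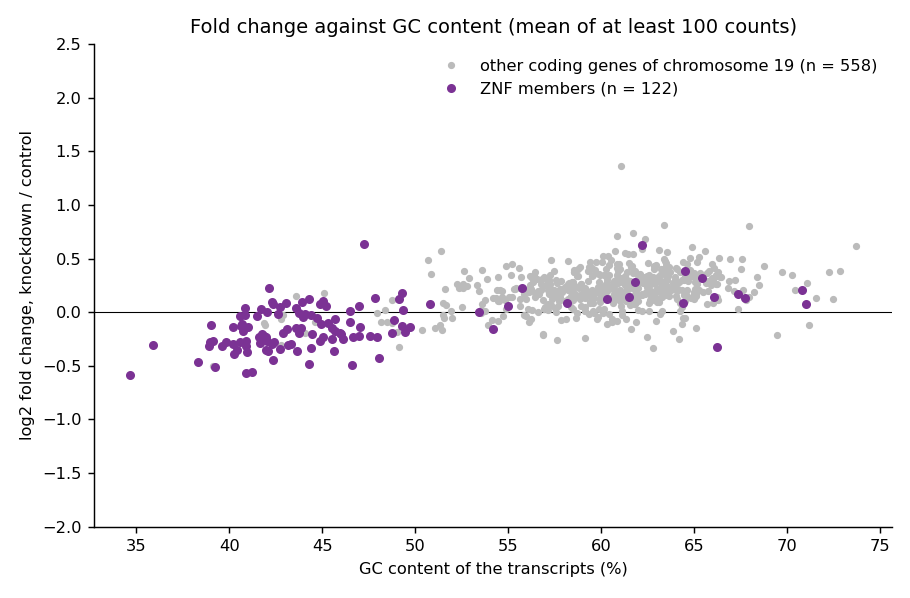
Log2 fold change of the libraries labelled sh1 and sh2 against the control (vertical axis) by GC content in percent (horizontal axis), for 122 members and 558 other protein-coding genes of chromosome 19 with a mean of at least 100 counts. Members range from -0.58 to 0.63, mostly at the low GC end, and both sets slope upward with GC content.

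By KRAB pattern, the 179 tested genes with it had a median log2 fold change of -0.14, with 14 lower and 2 higher before adjustment. The 47 without it had -0.05, with 6 lower and 4 higher. Beside these counts stand 4.92% lower and 6.82% higher of all tested genes. With length and GC trends removed, the order of these medians turned, to -0.03 with the pattern and -0.10 without it. By number of fingers, the median was 0.05 in 44 members with under 9 fingers, -0.15 in 71 with 9 to 12, and -0.18 in 111 with 13 or more. These groups also differ in GC content, at medians of 47.9%, 44.3% and 43.3%. With the trends removed, their medians were -0.01, -0.08 and -0.08.

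Along the chromosome the members fall into 16 runs when a gap of at least 1000000 bases between neighbours starts a new run, and the runs were unequal. The run of 37 members at chr19:19668796-24129961, which includes ZNF91, ZNF93, ZNF254 and the row of members without counts described above, had the lowest median of the runs with at least 5 tested members. Its 27 tested members had a median log2 fold change of -0.38, and 22 of the 27 were below 0. Against the control alone the median was -0.26 in the library labelled sh1, with 20 of 27 below it, and -0.49 in the library labelled sh2, with 24 below it. Before adjustment 7 of the 27 were lower and 0 higher. The background for this and the other runs is 4.92% lower and 6.82% higher over all tested genes. These members have a median GC content of 40.2%. With length and GC trends removed the median was -0.20, with 1 lower. The 25 tested genes of the same stretch that are no members, coding or not, had a median of 0.03 at a median GC content of 41.8%.

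The small run at chr19:34677639-34964049 (5 tested) came next, with a median of -0.30, 2 lower before adjustment, and -0.41 in the library labelled sh2. The run at chr19:36182060-37817300 (26 tested) had -0.18, with 17 below 0, and the run at chr19:43525497-45076588 (24 tested) had -0.17, also with 17 below 0. The 22 tested members of the run at chr19:11483427-12640098 had a median log2 fold change of 0.16, the highest of the runs with at least 5 tested members, with 0 higher and 0 lower before adjustment. Their median level was 0.600 FPKM, so many of these ratios rest on few counts. The median was -0.14 in the run at chr19:51571298-53580269 (37 tested), of which 30 were below 0, and it was 0.0031 with the trends removed. The run at chr19:55476332-58481230, with 58 tested members, had a median of -0.08, with 4 higher and 2 lower. In that run the library labelled sh2 alone gave a median of 0.0079. Tested genes of these stretches that are no members, coding or not, had the following medians, in the order the runs are named here. They were -0.44 (6 genes), -0.09 (22), 0.08 (34), -0.09 (13), 0.0031 (19) and 0.05 (52). In the small run the other genes were thus lower than the members. The differences between runs, and those between members and other genes of a run, were not tested.

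**Figure D4:**
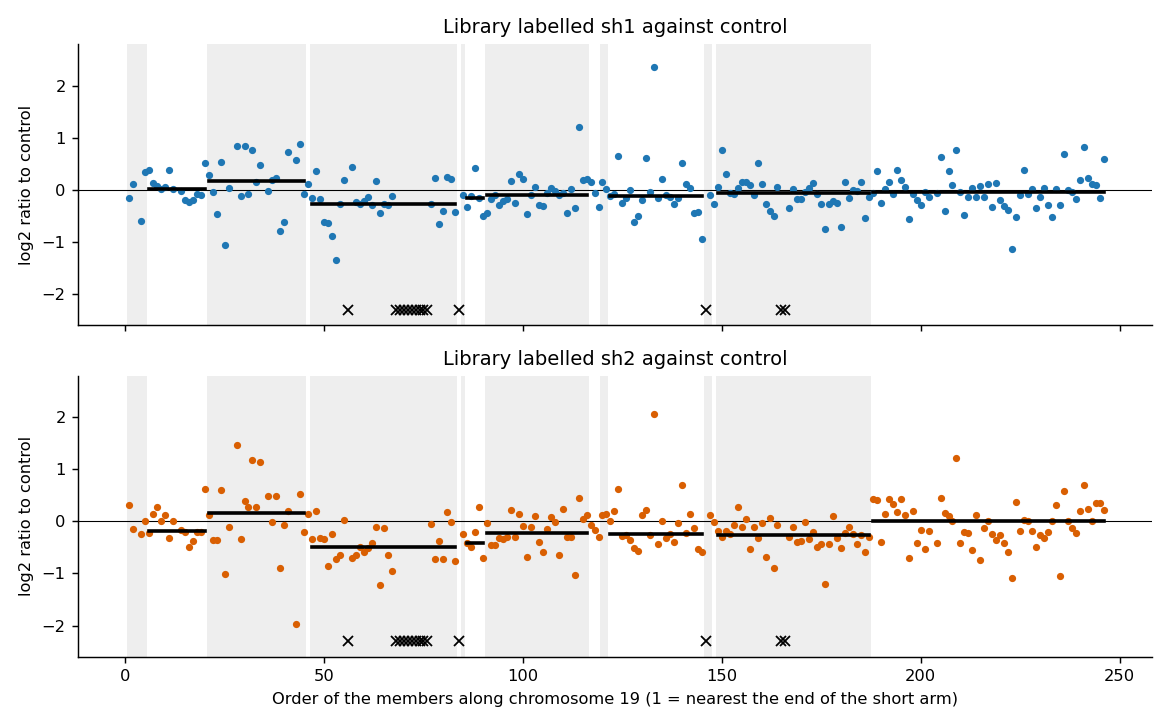
Log2 ratio to the control of each tested member in the libraries labelled sh1 and sh2, in chromosome order, with bands for the runs, black lines for the medians of runs with at least 5 tested members, and crosses for members with 0 counts in every library. The run holding ZNF91 and the row of 9 members without counts has the lowest medians in both panels, -0.26 and -0.49.

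Individual members were next taken by size of change, among genes averaging 50 counts or more that lay on 1 side of the control in both libraries. None of them passed the adjusted threshold. ZNF816 (ENSG00000180257, chr19:52949379-52962911, minus strand) was the lowest, with 80, 47 and 37 counts in the order control, sh1 and sh2, which also holds for the counts below. Its ratios to the control were 0.590 (95% counting interval 0.403 to 0.856) and 0.432 (0.284 to 0.645), and its log2 fold change was -0.97 (SE 0.34, adjusted p = 0.201 from edgeR). Other genes hold 27.3% of its 31-base words, of which the overlapping readthrough gene ZNF816-ZNF321P, with 0, 1 and 0 counts, holds 9.48%. The pseudogene ZNF137P, with 51, 42 and 48 counts, holds 5.46%. ZNF808, with 102, 80 and 89 counts, holds 4.86%.

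ZNF93 (ENSG00000184635, chr19:19900913-19963464, plus strand), known for repressing LINE-1 elements, had 73, 47 and 43 counts. Its log2 fold change was -0.74 (SE 0.34, adjusted p = 0.370 from edgeR). ZNF254, in the same run, had 192, 143 and 121 counts, and both of its ratios, 0.748 (0.598 to 0.934) and 0.589 (0.465 to 0.743), had counting intervals below 1 (log2 fold change -0.58, SE 0.22, adjusted p = 0.248 from edgeR). By the rule that chose them as falls, the control was above both other libraries for each of these genes. The other 5 at the low end were ZNF880 with 94, 66 and 54 counts, ZNF571 with 98, 77 and 51, ZNF582 with 73, 49 and 48, ZNF792 with 90, 63 and 59, and ZNF221 with 76, 49 and 57. Their log2 fold changes ran from -0.69 to -0.57. All 8 genes hold the KRAB pattern, as do 79.3% of all members.

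At the high end, ZNF329 (ENSG00000181894, chr19:58126252-58155110, minus strand) had 126, 202 and 202 counts. Its ratios were 1.61 (1.28 to 2.03) and 1.5 (1.19 to 1.89), with a log2 fold change of 0.63 (SE 0.22, adjusted p = 0.206 from edgeR). At 47.3% GC it does not belong to the GC-rich members, and its log2 fold change was 0.67 with the length and GC trends removed. ZNF428 had 93, 145 and 152 counts (log2 fold change 0.63, SE 0.25, adjusted p = 0.280 from edgeR) and 0.33 with the trends removed. SRRM5, which overlaps it and holds 26.1% of its 31-base words, had 26, 12 and 7 counts, in the other direction.

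Among the remaining 6, ZNF846 had 43, 61 and 71 counts, ZNF805 had 52, 80 and 76, and ZNF579 had 216, 278 and 305. ZNF787 had 675, 764 and 975 counts, ZNF784 had 81, 89 and 116, and ZNF581 had 150, 195 and 182. ZNF428, ZNF579, ZNF787, ZNF784 and ZNF581 have a GC content of 61.8% to 66.0%, and with the trends removed the last pair stood at -0.04 and -0.02. Of these 8 genes ZNF846 and ZNF805 hold the KRAB pattern.

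**Figure D5:**
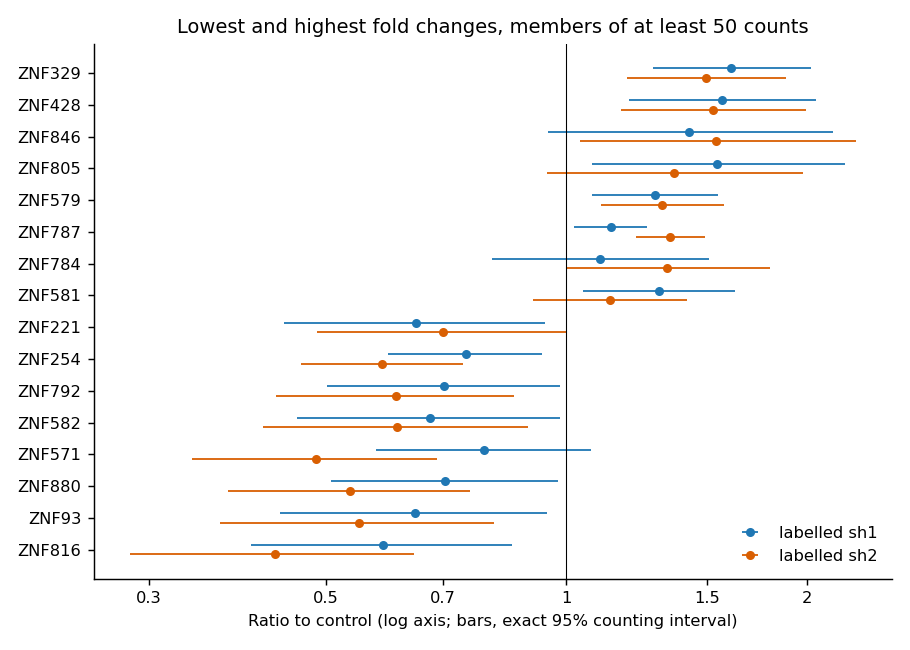
Ratio to the control (log axis) of the 8 members with the lowest and the 8 with the highest log2 fold change, among those of at least 50 mean counts with the same direction in both libraries labelled sh1 and sh2, with exact 95% counting intervals. Both intervals exclude 1 for ZNF816, ZNF93, ZNF880, ZNF582, ZNF792 and ZNF254 at the low end and for ZNF329, ZNF428, ZNF579 and ZNF787 at the high end. The genes were chosen by their fold changes and both ratios use the same control count, so these intervals add no separate support. Over all tested genes, the interval lay below 1 in 13.6% under sh1 and 18.7% under sh2. It lay above 1 in 15.4% and 19.5%.

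A few genes outside that choice are given because of their values, which were seen first. ZNF284 (chr19:44072144-44089613) had the smallest p of the family and the highest fold change, with 6, 31 and 27 counts. Its ratios of 5.19 (2.13 to 15.2) and 4.20 (1.70 to 12.4) have wide intervals because the control count is 6 (log2 fold change 2.21, SE 0.69, adjusted p = 0.130 from edgeR). The overlapping gene AC067968.1 holds 43.5% of its 31-base words and had 0 counts in all libraries. ZNF547, with 20, 34 and 50 counts, was the only other member past an unadjusted p of 0.05 and a 2-fold change (log2 fold change 1.01, SE 0.48, adjusted p = 0.377 from edgeR). These 2 of 226 compare with 2.48% of all tested genes past the same thresholds, and no member was past them in the lower direction, although ZNF90 was with library totals and ZNF296 (52, 27 and 37 counts) was with length and GC trends removed, at -1.08. The lowest log2 fold change with an unadjusted p under 0.05 was that of ZNF90, with 54, 21 and 35 counts (-0.996, SE 0.41, adjusted p = 0.308 from edgeR).

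Deeply counted members allowed smaller differences to be resolved. ZNF146, with 2737, 2406 and 2131 counts, had ratios of 0.883 (0.836 to 0.933) and 0.727 (0.687 to 0.770), so that the libraries labelled sh1 and sh2 differed from each other by more than counting error (log2 fold change -0.31, SE 0.12, adjusted p = 0.243 from edgeR). ZNF121, with 1321, 1152 and 1090 counts, had a log2 fold change of -0.28 and ZNF317, with 1013, 1042 and 1171 counts, 0.08. ZNF302 had 652, 517 and 523 counts, ZNF714 had 576, 496 and 411, and ZNF480 had 364, 301 and 243. For these last 3 genes, chosen after their values were seen, the log2 fold changes were -0.37, -0.39 and -0.46. Each was higher in the control than in both other libraries.

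Members with a known role were read as a further group. ZNF91 (ENSG00000167232, chr19:23304991-23395560, minus strand), whose fingers are printed above, had 189, 119 and 155 counts. Its ratios were 0.632 (0.498 to 0.800) and 0.766 (0.615 to 0.952). Both intervals, which cover counting error only, lay below 1. The log2 fold change of ZNF91 was -0.51 (SE 0.22, adjusted p = 0.329 from edgeR) or -0.27 with the trends removed. Beside ZNF91 and ZNF93, members that bind LINE-1 or endogenous retroviral sequence were read. ZNF765 had 237, 232 and 187 counts (log2 fold change -0.22, SE 0.20), and ZNF649 had 45, 55 and 42 (0.07, SE 0.38). The near copies ZNF587 and ZNF417, repressors of HERV-K, had 429, 388 and 381 counts and 124, 127 and 106 counts. Other genes hold 45.4% and 50.02% of their 31-base words. The member sharing most with ZNF587 is ZNF814, which overlaps it, and the member sharing most with ZNF417 is ZNF587. Reads may therefore be split among these genes.

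ZNF274, which brings SETDB1 to the 3′ ends of zinc finger genes themselves, had 476, 470 and 513 counts, with ratios of 0.992 (0.871 to 1.13) and 1.01 (0.887 to 1.14). ZNF331, an imprinted gene, had 665, 599 and 580 counts (log2 fold change -0.22, SE 0.15). ZNF382 and ZNF471, described as growth suppressors that are methylated in tumours, had 246, 218 and 214 counts and 158, 129 and 151 counts. ZNF224, a partner of WT1, had 151, 134 and 119 counts, with 42.5% of its 31-base words in other genes. ZNF568, whose mouse counterpart represses a placental Igf2 promoter, had 108, 112 and 124 counts. No unadjusted p of these 6 genes was under 0.05, so at this depth and with 1 control no difference was detectable in them.

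The machinery that KRAB proteins recruit was read from a list of 24 genes, and all 24 were tested. None passed the adjusted p of 0.05 in edgeR. Before adjustment 2 of the 24 were lower and 0 higher in edgeR, beside 4.92% and 6.82% of all tested genes. By DESeq2 there were 0 of either. The median log2 fold change of the list was -0.03, and 0.02 with length and GC trends removed. TRIM28 (chr19:58544091-58550722), the scaffold of the complex, lies at the distal end of the same chromosome and had 5378, 6157 and 6320 counts, or 89.8, 103 and 99.2 FPKM. Its log2 fold change was 0.17 (SE 0.11, adjusted p = 0.579 from edgeR) and -0.04 with the trends removed. SETDB1, given for its role, which methylates histone H3 at lysine 9, had 832, 832 and 852 counts. ATF7IP, the partner that stabilises SETDB1, had 1302, 1117 and 1055 counts, the lowest log2 fold change of the list at -0.31 (SE 0.13, adjusted p = 0.327 from edgeR), or -0.09 with the trends removed. HELLS, a chromatin remodeller, had 2049, 1828 and 1744 counts (log2 fold change -0.24, adjusted p = 0.414 from edgeR), and its direction turned, to 0.03, with the trends removed. The highest was that of SUV39H1, another histone H3 methyltransferase, with 291, 316 and 383 counts (log2 fold change 0.21, SE 0.18, adjusted p = 0.671 from edgeR). FAM208A (TASOR), also given for its role, belongs to the HUSH complex that silences LINE-1 elements and had 2804, 2619 and 2761 counts.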

How the data were processed

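Poly(A) RNA of DU145 cells was sequenced by a service company in 3 libraries. The authors deposited unnormalized counts per gene and FPKM values for each library. The submitters' processing notes name Bowtie2 2.0.6, TopHat2 2.0.9, Cufflinks 2.1.1 and Cuffdiff 2.1.1, and the counting tool is not given in the sources used here. Each deposited FPKM equals the count divided by the listed length and by 1 constant per library (largest relative deviation 1.63e-08), so only the counts were tested.

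Genes whose counts in the 3 libraries added to 10 or more entered edgeR 4.0.16 under R 4.3.3 (TMM, glmQLFit, glmQLFTest, Benjamini-Hochberg over 19849 genes), with the libraries labelled sh1 and sh2 against the control. The fit has 1 residual degree of freedom per gene, its prior degrees of freedom were infinite and its common dispersion was 0.00719. The p-values measure only the spread between these libraries, which are called here by sh1 and sh2, and nothing states whether they came from separate cultures. The fit was checked on simulated data. Ratios of single libraries carry exact 95% intervals on TMM-scaled counts, and since reads were not tied to molecules by identifiers, these cover only counting error. A comparison of single libraries compares those libraries, not the conditions.

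Alternatives were DESeq2 size factors, library totals, genes with at least 1 count, the DESeq2 1.42.0 Wald test, limma-trend (limma 3.58.1, prior count 2), offsets removing trends with length and GC content (20 classes each), and leaving out each knockdown library. Named genes were the 6 members with the highest mean FPKM, the 8 highest and 8 lowest log2 fold changes among members of at least 50 mean counts with 1 direction in both libraries, members with a known role, CD274, TRIM28, and the co-repressors past a test or at either end. The members, lists and rules were chosen with earlier results of these data known. Codon patterns were searched in the longest GENCODE 29 coding transcript, because no protein table was used here.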

Additional observations from a re-analysis of the deposited data

How the results depend on the processing

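The median log2 fold change of the tested members stayed below 0 under all 8 alternatives, and leaving out a knockdown library moved it between -0.19 and -0.08. No member had an adjusted p under 0.05 in edgeR, under its 3 other scalings and filters, in DESeq2, in limma-trend or with the trends removed. Counts before adjustment depended on the test. With DESeq2's Wald test 1 member was higher and 0 were lower, and with length and GC trends removed 3 were higher and 8 lower, against 6 and 20. Past the unadjusted p and a 2-fold change there was 1 member with DESeq2 and 1 with limma-trend, against 2, and 3 with library totals and 3 with the trends removed, 1 of them lower in each. Of the co-repressor genes, 1 was lower with the filter of at least 1 count, 0 with DESeq2 and 0 with the trends removed, against 2. Their median turned to 0.022 with the trends removed and ran from -0.082 to -0.033 when a knockdown library was left out. Removing the trends also turned ZNF358 to -0.18, ZNF574 to -0.051, ZNF784 to -0.035, ZNF581 to -0.020, TRIM28 to -0.035 and HELLS to 0.028. ZNF274, at -0.0011, became 0.00077 with DESeq2 size factors, 0.0022 with the filter of at least 1 count and 0.00073 with DESeq2, and leaving out the library labelled sh1 or sh2 gave 0.013 or -0.012. In the same way ZNF417 was -0.32 or 0.041, and ZNF649 was -0.19 or 0.30. The causes were not tested. Over all genes, 70 passed the adjusted p, 86 with limma-trend, 71 with DESeq2 size factors, 67 with library totals, 51 with the filter of at least 1 count, 11 with the trends removed and 6 with DESeq2. No paired analysis was possible because the control is a single library. The depth and the single control limit what could be called, since a member of median depth rests on about 119 counts a library.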
